A study of Homo sapiens with 4 samples.

Results

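The CXCL12 chemokine receptor pair CXCR4 and ACKR3, the cytohesin-binding protein CYTIP, the cytohesins CYTH1, CYTH2 and CYTH3, and their small GTPase ARF6 were followed in renal carcinoma cells with and without VHL. These 7 genes were chosen by name, for their part in chemokine-directed movement and adhesion, with earlier results of these data known. Of them, 6 were read from a table of 12912 genes. CXCR4 was not analysed here. The cells were 786-O, an established line of clear cell renal carcinoma without functional VHL. Its subline 786-O-Ctrl, which the labels give as VHL-null, was compared with 786-O-VHL, in which VHL was restored from a retroviral vector for the HA-tagged protein, with 2 RNA-seq libraries per group. By their labels both sublines carry a triple reporter, and all cells were cultured in RPMI1640 with serum and antibiotics. Each group is 1 subline, and nothing in the sources used here says that its libraries came from separate cultures, so the p-values measure the spread between these libraries, which may be technical.

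CXCR4 is a G protein-coupled receptor that moves cells along a gradient of CXCL12, and ACKR3, also called CXCR7, binds the same ligand, couples mainly to arrestins and takes the ligand up. Loss of VHL stabilises the HIF transcription factors, and CXCR4 is a known HIF target in renal carcinoma. Cytohesins are exchange factors that load ARF GTPases with GTP at the plasma membrane, where ARF6 governs endosomal recycling, integrin traffic and actin. CYTIP holds CYTH1 in the cytoplasm and was first described in cells of the blood, where it loosens integrin adhesion.

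The promoters of the members that fell, ACKR3 and CYTIP, are shown with that of CYTH3, which held the most matches to the core letters of the hypoxia response element. Each is the 300 bases before the start of the canonical transcript on the strand of the gene, read from the GRCh37 genome. They lie at chr2:237478168-237478467 on the plus strand for ACKR3, chr2:158300602-158300901 on the minus strand for CYTIP and chr7:6312256-6312555 on the minus strand for CYTH3. Capitals mark ACGTG or GCGTG on either strand, and a match read on the opposite strand appears as CACGT or CACGC.
ACKR3: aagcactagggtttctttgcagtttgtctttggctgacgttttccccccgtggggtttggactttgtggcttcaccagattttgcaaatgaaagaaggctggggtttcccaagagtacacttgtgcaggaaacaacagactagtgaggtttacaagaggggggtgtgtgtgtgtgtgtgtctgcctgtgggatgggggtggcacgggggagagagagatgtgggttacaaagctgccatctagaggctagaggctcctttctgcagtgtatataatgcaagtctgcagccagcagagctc
CYTIP: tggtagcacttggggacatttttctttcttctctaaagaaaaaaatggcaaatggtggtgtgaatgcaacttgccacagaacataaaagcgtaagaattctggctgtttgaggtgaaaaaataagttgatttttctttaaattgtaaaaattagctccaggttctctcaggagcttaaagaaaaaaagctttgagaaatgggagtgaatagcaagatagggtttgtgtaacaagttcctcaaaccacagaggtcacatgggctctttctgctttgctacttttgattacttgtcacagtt
CYTH3: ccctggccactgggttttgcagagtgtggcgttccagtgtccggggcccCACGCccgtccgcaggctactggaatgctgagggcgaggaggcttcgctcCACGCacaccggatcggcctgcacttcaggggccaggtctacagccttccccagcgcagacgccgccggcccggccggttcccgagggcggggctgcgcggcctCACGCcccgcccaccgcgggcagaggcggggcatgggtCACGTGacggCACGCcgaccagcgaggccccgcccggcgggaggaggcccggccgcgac
Neither the ACKR3 nor the CYTIP window holds these letters, while that of CYTH3 holds ACGTG 2 times, at 1 palindrome that is counted on each strand, and GCGTG 4 times. The windows of ARF6 and CYTH1 hold GCGTG 2 times each, and that of CYTH2 holds neither. The annotated genes of ACKR3 and CYTIP begin upstream of their canonical starts, and windows at other starts were not read. Over 12167 promoters of the same length, 26.7% held ACGTG, 51.9% held GCGTG and 63.9% held either, so a match is common. G and C made up 37% of the CYTIP window, 51.3% of that of ACKR3 and 75.3% of that of CYTH3.

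CYTIP and ACKR3 were lower in 786-O-VHL, CYTH2, CYTH3 and ARF6 were higher, and CYTH1 did not pass the test. CYTIP fell the most, by 34.2-fold in pooled counts, and ACKR3 fell 3.10-fold. The rises were smaller, at 1.54-fold for CYTH2, 1.43-fold for CYTH3 and 1.31-fold for ARF6. Counts of 3 of 6 members were higher at an FDR under 0.05, against 32.6% of the 12335 genes tested, and 2 of 6 were lower, against 31.9%. The groups did not overlap for any of the 6 members, with 4 higher and 2 lower, where 40.8% of all genes tested were higher without overlap and 39.2% were lower. The shares in the lower direction are near the background, and those in the higher direction lie above it. With 6 members, no excess is read from this. Past 4-fold with an FDR under 0.01, a threshold that 1.54% of all genes passed in the lower direction, stood 1 member, CYTIP. The study reports the fall of CYTIP from these same libraries, and the members were chosen with earlier results known. This count is therefore not independent evidence.

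FDR here is the Benjamini-Hochberg adjusted p of edgeR's quasi-likelihood test over all genes tested, and log2 fold changes above 0 mean a higher level in 786-O-VHL. With 2 against 2 libraries a two-sided exact permutation test of a single value cannot go below 0.333. The deeper 786-O-Ctrl library held 22141263 counts and the shallower one 15714166. The 786-O-VHL libraries held 2807779 counts (replicate 1) and 16114120 (replicate 2). A floor of 3 counts, used here in place of a count of 0, is 1.02 CPM in replicate 1 but 0.142 to 0.199 CPM in the others. Levels are CPM, that is, counts scaled to a common library size after TMM. The median log2 fold change of all genes tested was 0.02, with quartiles of -0.40 and 0.46, and 50.5% of calls were in the higher direction. Scaling by library totals alone moved all fold changes up by a median of 0.13 and that share to 62.1%. Chi-square over genes per degree of freedom was 2.25 between the 786-O-Ctrl libraries and 2.76 between those of 786-O-VHL, more than counting noise gives.

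The restored gene, VHL, was higher in 786-O-VHL but was also counted in 786-O-Ctrl. The study describes the VHL of 786-O as carrying a frameshift mutation. These counts do not tell a mutant transcript from a working one. VHL had 42.9 and 43.9 CPM in 786-O-Ctrl against 178 and 163 CPM in 786-O-VHL, or 1.96 as a log2 fold change (SE 0.0706). All 10 listed markers of kidney tubule and renal carcinoma had a row, among them PAX8 at 274 ± 3.81 CPM in 786-O-Ctrl and 152 ± 20.4 CPM in 786-O-VHL (SD, n = 2). Of the 10, 2 rose, NDUFA4L2 (log2 fold change 2.39) and CDH16 (1.75), and 5 fell, among them VIM (-1.21) and PAX8 (-0.90), with a median of -0.48. Over all genes tested, 32.6% rose and 31.9% fell. NDUFA4L2 had only 7 and 9 counts in 786-O-Ctrl against 3 and 46 in 786-O-VHL. Without 786-O-VHL replicate 2 the value of NDUFA4L2 was 1.17 (FDR = 0.438). The summed level of these markers ran from 2943 to 2952 CPM in 786-O-Ctrl and from 1599 to 1628 CPM in 786-O-VHL.

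**Figure D1:**
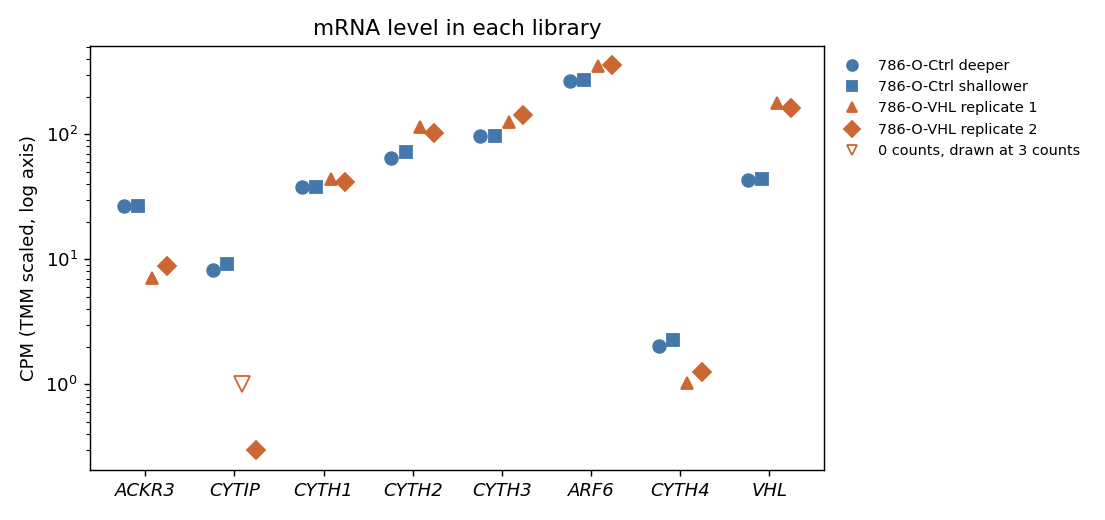
Level of each member, of the related cytohesin CYTH4 and of VHL in every library, in CPM on a log axis. Blue points are 786-O-Ctrl and orange points 786-O-VHL, and the open triangle is the CYTIP count of 0 in 786-O-VHL replicate 1, drawn at the level of 3 counts (1.02 CPM). CYTIP and ACKR3 sit lower in both 786-O-VHL libraries, and the other 4 members sit higher by smaller steps.

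ACKR3 (ENSG00000144476.6) is on the plus strand of chromosome 2 (GRCh37, 237476430 to 237490997), and its canonical transcript has 2 exons. It was counted 558 times in the deeper and 403 times in the shallower 786-O-Ctrl library, and 21 and 150 times in 786-O-VHL replicates 1 and 2. As levels these were 26.5 and 26.8 CPM against 7.12 and 8.91 CPM. Both 786-O-VHL libraries lay well below both 786-O-Ctrl libraries, which were nearly equal. The means were 26.6 ± 0.202 CPM and 8.01 ± 1.26 CPM (SD, n = 2), and the log2 fold change was -1.63 (SE 0.142, 95% interval -1.92 to -1.34, FDR = 5.32e-11). The 21 counts of replicate 1 alone bound its level to between 4.41 and 10.9 CPM (exact Poisson, counting error only), below either 786-O-Ctrl library. Under 12 alternatives the log2 fold change of ACKR3 stayed between -1.91 and -1.50. The study lists ACKR3 among hypoxia genes that it picked on these libraries, so that listing is not independent evidence of the direction.

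CYTIP (ENSG00000115165.10) lies on chromosome 2, from 158271131 to 158345473 on the minus strand, with 8 exons in its canonical transcript. Its counts were 173 and 139 in 786-O-Ctrl against 0 and 5 in 786-O-VHL, which are 8.21 and 9.24 CPM against 0 and 0.297 CPM. CYTIP was thus a gene of low level in 786-O-Ctrl and nearly uncounted in either 786-O-VHL library. At the 786-O-Ctrl rate, 25.5 counts would have been predicted in replicate 1 and 146 in replicate 2. Depth therefore limits the size of the fall but not its direction. Pooled over libraries, CYTIP had 312 counts or 8.64 CPM in 786-O-Ctrl and 5 counts or 0.253 CPM in 786-O-VHL, a ratio of 34.2 with an exact counting interval of 14.5 to 106. Against a floor of 3 counts in replicate 1, the level of CYTIP was 8.49-fold lower there than in 786-O-Ctrl. The exact 95% Poisson interval of its 0 counts reached 1.25 CPM, above that floor, so 8.49 is not a strict bound. The fitted log2 fold change was -5.06 (SE 0.417, 95% interval -5.92 to -4.20, FDR = 1.93e-11), and 19 genes of the table had a larger fitted fall. Without 786-O-VHL replicate 2 the only library left in that group has no count, and the fitted value of -9.82 is no bound, while without replicate 1 it was -4.83 and after thinning to the shallowest library -7.59. CYTIP had too few counts to be tested where at least 10 in every library were required. The study names CYTIP as an HIF target known before, and reports its fall in 786-O-VHL. That report rests on these same libraries and is not independent evidence of the direction.

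Of 15 listed leukocyte markers, 4 had a row, and 3 of these 4 fell as CYTIP did. The other 11, PTPRC and CD3D among them, were not analysed here. ITGB2, a leukocyte integrin chain listed with the cytohesin partners below, rose (log2 fold change 1.56). LCP1, an actin-bundling plastin of blood cells that some carcinomas also express, had 418, 293, 0 and 4 counts in the order of the libraries above. CSF1R, the receptor for CSF1, had 284, 205, 10 and 42 counts, and CORO1A, an actin-binding coronin, had 30, 18, 1 and 4. All 3 fell, with log2 fold changes of -6.55, -2.35 and -2.35 and FDR values of 7.61e-16, 2.45e-10 and 0.00198, where 31.9% of all genes tested fell. The fitted value of LCP1 rests on the 4 counts of 786-O-VHL replicate 2, and without that library the other has no count and its -11.00 is no bound. The FDR of CORO1A was 0.216 without 786-O-VHL replicate 2, at a value of -1.95. CD14 was at 15, 1, 3 and 3 counts and had a log2 fold change of -0.47 (FDR = 0.658). The summed level of the 4 ran from 34.4 to 35.5 CPM in 786-O-Ctrl and from 3.15 to 4.75 CPM in 786-O-VHL, and the part of other cells in the result was not tested. In such bulk libraries, fewer cells with a transcript and less of it per cell cannot be told apart. Endothelial markers summed to between 1.19 and 1.33 CPM in 786-O-Ctrl and between 0.678 and 1.01 CPM in 786-O-VHL over 3 of 6 genes, none of which had enough counts to be tested. Of 6 fibroblast markers 3 were tested, and PDGFRB rose (log2 fold change 0.70, FDR = 0.0147), a call that was lost without the deeper 786-O-Ctrl library (0.50, FDR = 0.237) and without 786-O-VHL replicate 2 (0.63, FDR = 0.249). Their sum ran from 10.4 to 11.4 CPM in 786-O-Ctrl and from 14.6 to 15.3 CPM in 786-O-VHL.

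Profiles over the 4 libraries were compared by the Euclidean distance between log2 CPM centred on each gene's mean. The tested genes nearest to CYTIP were SLAMF8 at a distance of 0.267, SLAMF7 at 0.461 and TRPM2 at 1.02, where the median over all genes was 5.29. SLAMF8 had 162, 108, 0 and 4 counts, close to those of CYTIP itself. SLAMF7 had 429, 325, 1 and 21 counts and TRPM2 had 454, 336, 2 and 28. Nearest to ACKR3 were MYEOV (0.0371), CENPI (0.0548) and RRM1 (0.0825), with a median over all genes of 1.78. The level of MYEOV went from 115 ± 0.509 to 35.9 ± 5.71 CPM (SD, n = 2) and that of RRM1, the large subunit of ribonucleotide reductase, from 148 ± 1.14 to 44.9 ± 4.51 CPM.

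**Figure D2:**
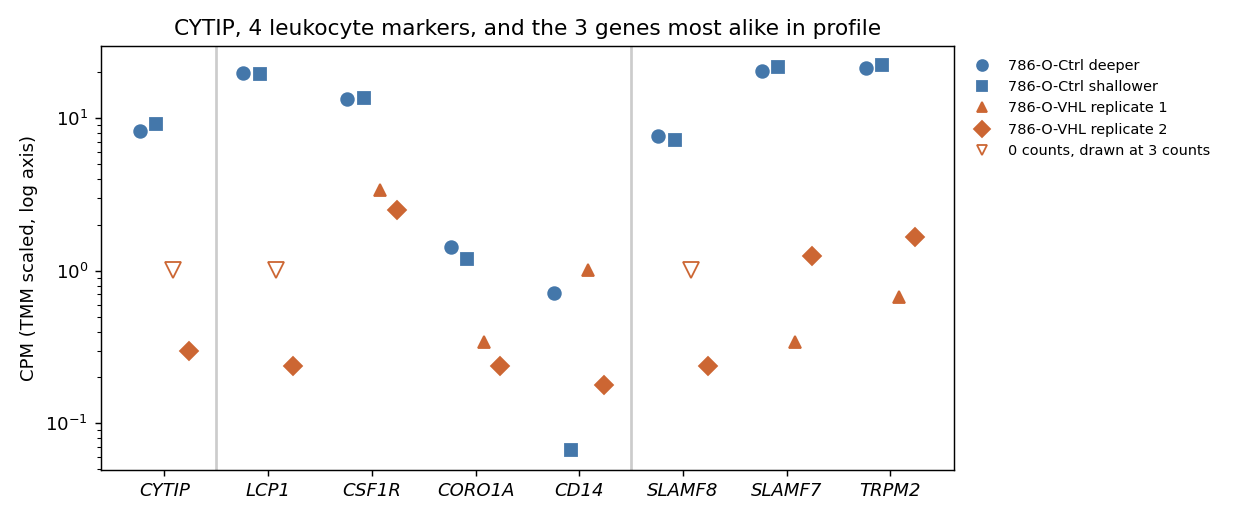
CYTIP, the 4 leukocyte markers with a row and the 3 genes nearest to CYTIP in profile, in every library, in CPM on a log axis. Blue is 786-O-Ctrl and orange 786-O-VHL, and open triangles are counts of 0 in 786-O-VHL replicate 1, drawn at 3 counts (1.02 CPM). All but CD14, whose groups overlap, are lower in both 786-O-VHL libraries.

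CYTH2 (ENSG00000105443.15, also called ARNO) lies on chromosome 19 from 48972465 to 48985571 on the plus strand, with 12 exons in its canonical transcript. Its counts were 1370, 1093, 337 and 1718, which are 65.0 and 72.6 CPM in 786-O-Ctrl against 114 and 102 CPM in 786-O-VHL. Both 786-O-VHL libraries were above both 786-O-Ctrl libraries, by more than the replicates differed. The means were 68.8 ± 5.36 and 108 ± 8.69 CPM (SD, n = 2), with a log2 fold change of 0.62 (SE 0.0748, 95% interval 0.47 to 0.78, FDR = 3.17e-08). The annotation places a protein-coding gene on the same strand over 3.45% of the exon bases of CYTH2 and a lncRNA on the opposite strand over 4.06%, neither of which has a row of its own. How the counting treated such reads is not given in the sources used here. Of the 9656 distinct 50-base stretches of CYTH2 transcripts, 680 (7.04%) also occur in another gene, but none is shared between cytohesins for any of CYTH1, CYTH2 and CYTH3, so reads of that length can be told apart.

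CYTH3 (ENSG00000008256.16, also called GRP1), which binds the PI3-kinase product PIP3 with high selectivity, lies on chromosome 7 from 6201410 to 6312275 on the minus strand, with 13 exons. It was counted 2036, 1453, 369 and 2422 times, at 96.7 and 96.5 CPM in 786-O-Ctrl against 125 and 144 CPM in 786-O-VHL. The 786-O-Ctrl libraries were nearly equal, and the lower 786-O-VHL library was still above them. Means of 96.6 ± 0.0839 and 134 ± 13.2 CPM (SD, n = 2) gave a log2 fold change of 0.51 (SE 0.0689, 95% interval 0.37 to 0.65, FDR = 2.33e-07).

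CYTH1 (ENSG00000108669.16), the partner that CYTIP binds, lies on chromosome 17 from 76670130 to 76778379 on the minus strand, with 14 exons. Its counts of 798, 569, 129 and 697 are levels of 37.9 and 37.8 CPM in 786-O-Ctrl against 43.8 and 41.4 CPM in 786-O-VHL. The groups did not overlap, but the step was small. The log2 fold change was 0.15 (SE 0.0910, 95% interval -0.04 to 0.34, FDR = 0.154), and so a rise of up to about that upper bound, or a slight fall, remained within the interval. CYTH1 passed only with library totals alone as the scaling (0.28, FDR = 0.00832), and relative to the median of all genes its value was 0.13 under both scalings. CYTH4, the cytohesin of blood cells, was at 43, 34, 3 and 21 counts, a log2 fold change of -0.82 (SE 0.397, FDR = 0.0714).

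ARF6 (ENSG00000165527.7) lies on chromosome 14 from 50359797 to 50363772 on the plus strand, with 2 exons. It was the most counted member, at 5604, 4121, 1033 and 6009 counts, or 266 and 274 CPM in 786-O-Ctrl against 350 and 357 CPM in 786-O-VHL. Each group was tight and the groups lay apart. The means were 270 ± 5.49 and 354 ± 4.54 CPM (SD, n = 2), a log2 fold change of 0.39 (SE 0.0614, 95% interval 0.27 to 0.52, FDR = 2.74e-06). With library totals alone the values for CYTH2, CYTH3 and ARF6 were 0.76, 0.65 and 0.53, and relative to the median of all genes under that scaling they were 0.61, 0.50 and 0.38.

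**Figure D3:**
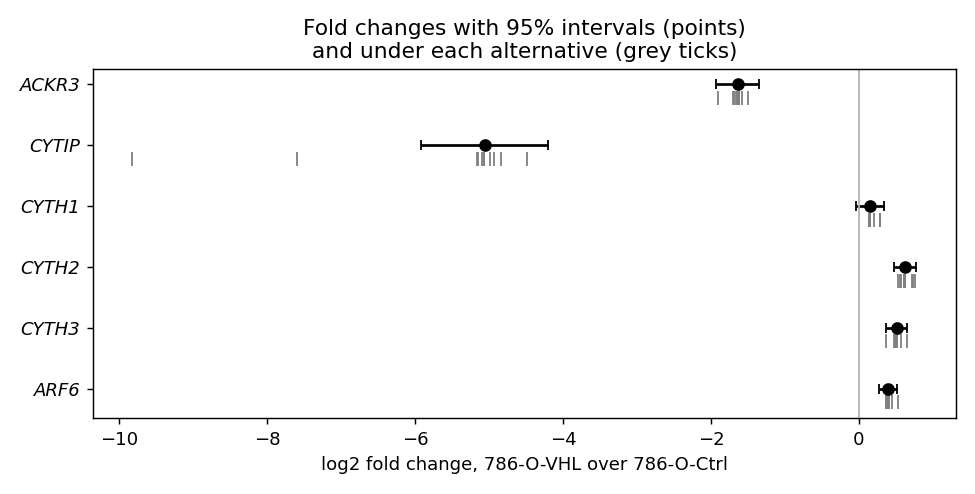
Log2 fold change of the 6 members, 786-O-VHL over 786-O-Ctrl. Black points with bars are edgeR estimates with 95% intervals, and each grey tick is the value under 1 of the alternatives. Of the members, CYTH1 has an interval that spans 0 (-0.04 to 0.34), and the ticks of CYTIP reach -7.59 after thinning and -9.82 where the library left in 786-O-VHL has no count.

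Per kilobase of annotated exon, ARF6 was the most abundant member in 786-O-Ctrl at 67.9 CPM per kilobase, followed by CYTH3 (16.7), ACKR3 (12.9), CYTH2 (7.38), CYTH1 (4.88) and CYTIP (2.58). In 786-O-VHL the order of these levels was ARF6 (88.9), CYTH3 (23.2), CYTH2 (11.6), CYTH1 (5.49), ACKR3 (3.87) and CYTIP (0.0439). ACKR3 thus went from above CYTH2 and CYTH1 to below both. Per kilobase of the canonical transcript, however, CYTH2 was already above ACKR3 in 786-O-Ctrl (15.5 against 13.2 CPM per kilobase), so their order there rests on the length used.

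Among the cytohesins, with CYTH4 included and per kilobase of exon, CYTH3 took most of the signal, at 57.7% and 56.1% in 786-O-Ctrl against 54.4% and 60.1% in 786-O-VHL, with overlapping groups. The share of CYTH2 was 24.2% and 26.2% in 786-O-Ctrl against 30.9% and 26.5% in 786-O-VHL, which lay just apart. The share of CYTH1 was 16.9% and 16.4%, then 14.2% and 12.9%, so that each 786-O-VHL library lay below 786-O-Ctrl. That of CYTH4 went from 1.16% and 1.25% to 0.421% and 0.496%. The summed level of the 4 cytohesins was 202 and 209 CPM in 786-O-Ctrl against 284 and 288 CPM in 786-O-VHL.

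The ratio of CYTIP to CYTH1 counts changed far more than the ratios among the cytohesins. It mostly restates the fall of CYTIP, as CYTH1 did not pass the test. For every 100 counts of CYTH1 there were 21.7 and 24.4 counts of CYTIP in 786-O-Ctrl, against 0 and 0.717 in 786-O-VHL. Counts of CYTH2 per 100 of CYTH1 were 172 and 192 in 786-O-Ctrl against 261 and 246 in 786-O-VHL, and those of CYTH3 were 255 in each of the 786-O-Ctrl libraries, against 286 and 347 in 786-O-VHL. In each of these ratios the groups did not overlap, and the exact two-sided permutation test gave p = 0.333, the smallest that these libraries allow. For single genes, 40.8% of all tested were higher without overlap and 39.2% lower, so a lack of overlap is common here. The ratio of CYTH3 to CYTH2 overlapped between the groups (exact permutation p = 0.667).

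Around the members, 8 hand-written lists held 102 genes, of which 76 had a row and 71 were tested. Of these 20 rose, 24 fell and 27 did not pass, with a median log2 fold change of -0.01, where 32.6% of all genes rose and 31.9% fell with a median of 0.02. Ligands and the coupling of the receptors held the larger falls. Of the 5 listed ligands of CXCR4 or ACKR3, CXCL12 among them, 2 had a row, and both fell. ADM, the vasodilator peptide adrenomedullin that ACKR3 also binds and a known hypoxia gene, went from 113 ± 0.101 to 47.1 ± 1.35 CPM (SD, n = 2; log2 fold change -1.25, FDR = 1.47e-14). HMGB1, a chromatin protein that forms a complex with CXCL12, went from 396 ± 6.50 to 234 ± 3.66 CPM (-0.75, FDR = 2.17e-11).

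Of 13 tested genes that couple CXCR4 to its signal or end it, 3 rose and 5 fell (median log2 fold change -0.01, or 0.12 with library totals alone, with 4 in each direction). GNAI2, an inhibitory G protein subunit through which CXCR4 signals, fell from 700.1 ± 11.8 to 281 ± 2.47 CPM (SD, n = 2; log2 fold change -1.32, FDR = 1.06e-16), and its relative GNAI3 from 221 ± 2.95 to 133 ± 7.98 CPM (-0.71, FDR = 2.19e-10). GNAI1 was at -0.07 (FDR = 0.546). HGS, which sorts ubiquitinated receptors at endosomes, fell by 1.29 on the log2 scale (FDR = 2.41e-15), and its ubiquitin ligase counterpart for CXCR4, ITCH, rose by 0.37 (FDR = 1.08e-05). The arrestins, which take CXCR4 and ACKR3 off the surface, went opposite ways. ARRB1 had 31.2 and 28.8 CPM in 786-O-Ctrl against 16.6 and 14.1 CPM in 786-O-VHL (log2 fold change -1.04, FDR = 3.20e-08). ARRB2 had 16.7 and 16.4 CPM, then 23.1 and 23.4 CPM (0.49, FDR = 0.000939), and the FDR of ARRB2 was 0.0567 at 0.47 without 786-O-VHL replicate 2. GNA13, which links receptors to RhoA, rose by 0.28 (FDR = 0.00128).

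Of 21 other chemokine receptors, 3 had a row and 2 were tested. CCRL2, which binds chemerin without signalling, rose from 0.911 ± 0.255 to 3.65 ± 1.55 CPM (SD, n = 2; log2 fold change 1.68, FDR = 0.000646), a low level in both groups, with 23, 11, 14 and 43 counts. Without 786-O-VHL replicate 2 its value was 2.32 (FDR = 0.00289). CCR10 was at 0.35 and did not pass.

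Of 10 tested partners of cytohesins, CYTH4 included as their relative, 3 rose and 2 fell (median 0.04). CCDC120, a centrosomal protein that binds cytohesins, rose from 1.38 ± 0.208 to 7.59 ± 1.25 CPM (SD, n = 2; log2 fold change 2.38, FDR = 4.07e-08). ITGB2 is the leukocyte integrin chain whose tail binds CYTH1. It was at 5.94 and 6.45 CPM in 786-O-Ctrl against 12.5 and 20.1 CPM in 786-O-VHL (1.56, FDR = 1.27e-08). ITGB2 thus moved against the 3 leukocyte markers above that fell. FRMD4A, a scaffold that ties CYTH1 to cell polarity proteins, fell by 0.75 (FDR = 8.24e-10). FRMD4B, the CYTH3-binding GRSP1, fell by 0.71 (FDR = 0.000564), and its FDR was 0.0655 at -0.64 without 786-O-VHL replicate 2.

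None of the 5 other ARF GTPases tested rose and 3 fell, where 32.6% of all genes tested rose and 31.9% fell. ARF1, the Golgi member, fell from 545 ± 13.3 to 409 ± 24.5 CPM (SD, n = 2; log2 fold change -0.40, FDR = 2.35e-06), and ARF3 (-0.19, FDR = 0.0132) and ARF4 (-0.15, FDR = 0.0439) also passed, with a median of -0.15 over the list. The falls of ARF3 and ARF4 were not called with library totals alone (FDR = 0.437 and 0.869). With DESeq2, or after thinning to the shallowest library, 1 of the 5 was called lower. Without the deeper 786-O-Ctrl library ARF3 was at -0.15 (FDR = 0.240) and ARF4 at -0.17 (FDR = 0.191). ARF4 was also not called without the shallower one (-0.12, FDR = 0.381) or without 786-O-VHL replicate 2 (-0.11, FDR = 0.172).

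Other ARF exchange factors were split, with 4 of 11 tested higher and 2 lower (median 0.10). IQSEC2, which acts on ARF6 at synapses, rose from 18.2 ± 0.761 to 30.3 ± 3.61 CPM (SD, n = 2; log2 fold change 0.68, FDR = 1.50e-05), and GBF1, which acts at the Golgi, fell from 162 ± 1.42 to 120 ± 3.03 CPM (-0.42, FDR = 2.15e-06). PSD2 (1.22, FDR = 0.0175), FBXO8 (0.63, FDR = 0.00103) and ARFGEF3 (-0.61, FDR = 0.00471) passed at fewer counts. Without 786-O-VHL replicate 2 they were at 0.33 (FDR = 0.815), 0.50 (FDR = 0.131) and -0.70 (FDR = 0.0782). Without the deeper 786-O-Ctrl library PSD2 was at 1.32 (FDR = 0.0666) and FBXO8 at 0.44 (FDR = 0.0821), and without the shallower one PSD2 was at 1.10 (FDR = 0.0899) and ARFGEF3 at -0.54 (FDR = 0.0759).

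Of the GTPase-activating proteins that switch ARFs off, 6 of 21 rose and 7 fell (median -0.12, or 0.01 with library totals alone, with 7 higher and 4 lower). ARAP2, which acts on ARF6 at focal adhesions, rose from 7.04 ± 0.378 to 13.7 ± 2.52 CPM (SD, n = 2; log2 fold change 1.04, FDR = 6.16e-06). ASAP1, which also acts at adhesions and invadopodia, fell from 358 ± 12.5 to 255 ± 26.4 CPM (-0.46, FDR = 9.04e-07), and ACAP3 fell by 0.39 (FDR = 4.27e-05). AGAP2 (0.95, FDR = 0.00471), ADAP2 (0.71, FDR = 0.00547) and SMAP2 (-0.39, FDR = 0.00248) also passed. AGAP2 was at 0.86 (FDR = 0.0734) without the deeper 786-O-Ctrl library, ADAP2 at 0.68 (FDR = 0.0531) without the shallower one, and without 786-O-VHL replicate 2 AGAP2 was at 0.67 (FDR = 0.322) and SMAP2 at -0.36 (FDR = 0.0896).

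Of 7 tested effectors of ARF6, 3 rose and 3 fell (median 0.07). The phospholipases D went opposite ways. PLD1 was at 13.4 and 13.6 CPM in 786-O-Ctrl against 30.5 and 26.4 CPM in 786-O-VHL (log2 fold change 1.03, FDR = 4.82e-08), whereas PLD2 went from 33.1 ± 1.15 to 26.6 ± 1.29 CPM (SD, n = 2; -0.34, FDR = 0.00575). SPAG9, a motor adaptor of recycling endosomes, rose by 0.36 (FDR = 2.00e-05), its relative MAPK8IP3 by 0.21 (FDR = 0.00639), and the lipid kinase PIP5K1C (-0.39, FDR = 8.93e-05) and the exocyst subunit EXOC5 (-0.26, FDR = 0.00214) fell. Without 786-O-VHL replicate 2, PLD2 was at -0.28 (FDR = 0.182), PIP5K1C at -0.29 (FDR = 0.0531) and EXOC5 at -0.19 (FDR = 0.135). Without the shallower 786-O-Ctrl library PLD2 was at -0.30 (FDR = 0.100), EXOC5 at -0.21 (FDR = 0.109) and MAPK8IP3 at 0.19 (FDR = 0.130), and MAPK8IP3 was at 0.24 (FDR = 0.0606) without the deeper one.

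**Figure D4:**
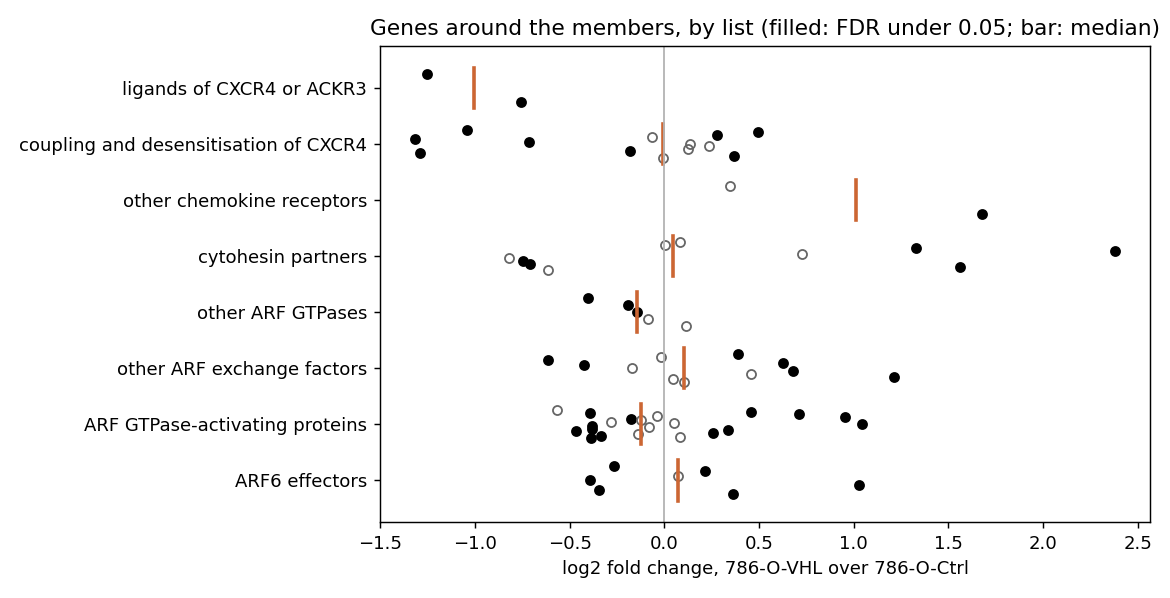
Log2 fold change, 786-O-VHL over 786-O-Ctrl, of the 71 tested genes of the 8 lists around the members. Each point is a gene, filled where the FDR is under 0.05, and the orange bar is the median of its list. Apart from the ligands and the other chemokine receptors, of which 2 each were tested, list medians lie between -0.15 and 0.10, with genes on both sides of 0 in each.

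Neighbouring genes were read to see whether a member moved with its surroundings. Of 12 nearest tested genes, 1 on each side of each member, 5 rose, 2 fell and 5 did not pass. Over all genes tested, 32.6% rose and 31.9% fell. The median log2 fold change of these neighbours was 0.32, against 0.02 over all genes tested. GALNT5, a glycosyltransferase of mucin-type O-linked sugars that lies 96.1 kb to the left of CYTIP, fell from 8.71 ± 1.31 to 0.945 ± 0.581 CPM (SD, n = 2; log2 fold change -3.68, FDR = 3.89e-10), and was at -2.67 without 786-O-VHL replicate 2 and at -2.97 after thinning. On the other side, 247 kb away, the activin receptor ACVR1 went from 40.1 ± 1.33 to 50.2 ± 3.30 CPM (0.36, FDR = 0.000674), and was at 0.25 (FDR = 0.141) without 786-O-VHL replicate 2. Of the nearest tested genes, that on 1 side of CYTIP also fell and that on the other did not. Whether the falls of CYTIP and GALNT5 are linked was not tested.

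Beside ACKR3, GBX2 at 399 kb was at 0.78 (FDR = 0.144), or -0.30 without 786-O-VHL replicate 2, and COPS8 at 504 kb was at -0.35 (FDR = 0.000161), smaller than the fall of ACKR3. USP42, whose end lies 0.215 kb from that of CYTH3, rose by 0.43 (FDR = 0.000328), and RAC1 on the other side was at 0.10 (FDR = 0.174, and 0.0336 at 0.14 without 786-O-VHL replicate 2). Beside CYTH2, KCNJ14 was at 0.85 (FDR = 0.0350) and LMTK3 at 0.81 (FDR = 0.130), both under 4 CPM, and the call of KCNJ14 was lost without any 1 of the libraries (0.74 to 1.21, FDR = 0.0760 to 0.157). Beside ARF6, VCPKMT was at 0.63 (FDR = 0.0127) and NEMF at 0.13 (FDR = 0.265). VCPKMT was at 0.56 (FDR = 0.130) without the deeper 786-O-Ctrl library and at 0.82 (FDR = 0.0569) without 786-O-VHL replicate 2. Beside CYTH1, AC022966.1 (ENSG00000055483.19, named USP36 in the gene table used here) was at 0.29 (FDR = 0.000704), or 0.18 (FDR = 0.137) without 786-O-VHL replicate 2, and DNAH17 at 0.06 (FDR = 0.889), or -0.66 without that library. Over chromosome 2 as a whole, which holds CYTIP and ACKR3, 28.0% of 843 tested genes rose and 35.3% fell, against 33.1% and 31.9% of 11357 on the other chromosomes. On chromosome 19, which holds CYTH2, 43.7% of 887 genes rose and 20.9% fell (median log2 fold change 0.24), and on chromosome 14, which holds ARF6, 40.1% of 377 rose and 26.3% fell (0.14). On chromosome 7, which holds CYTH3, 29.8% of 597 rose and 36.9% fell (-0.08), and on chromosome 17, which holds CYTH1, 34.0% of 721 rose and 31.3% fell (0.01).

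**Figure D5:**
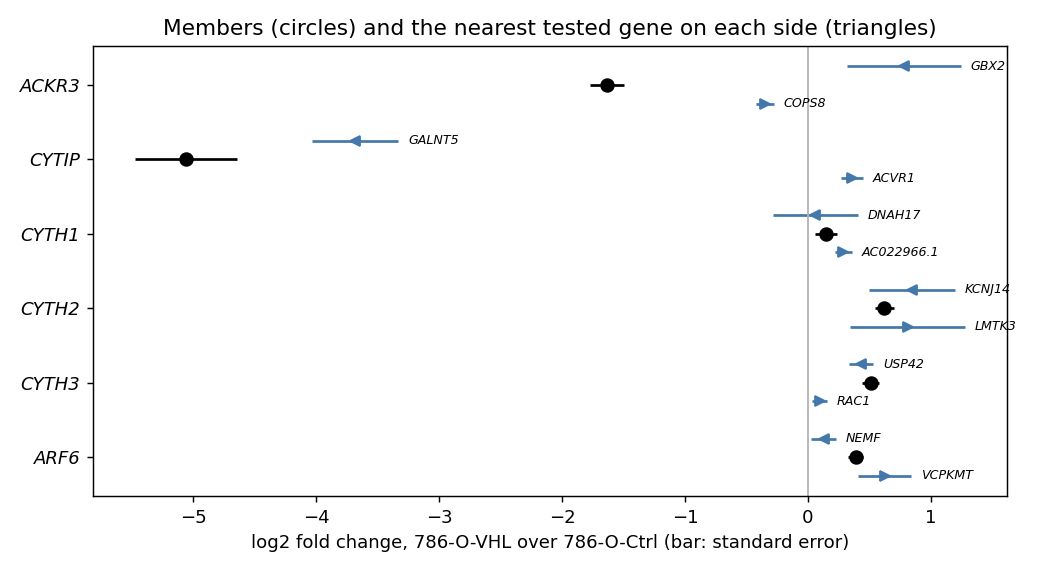
Log2 fold change, 786-O-VHL over 786-O-Ctrl, of the 6 members (black circles) and of the nearest tested gene on each side in the genome (blue triangles pointing to that side), with standard errors as bars. GALNT5 beside CYTIP (-3.68) lies far to the left of the other neighbours, which run from -0.35 to 0.85.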

How the data were processed

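Libraries were made with an Illumina TruSeq kit from total RNA. The authors deposited raw counts of reads per gene for 12912 genes. The submitters' processing notes name CASAVA, STAR and hg19, and the study tested differential expression with DESeq2. Which tool and annotation did the counting, and whether by strand, is not given in the sources used here. Samples were grouped by their labels, and 0 columns were left unused. Both 786-O-Ctrl columns carry the same number and were used as unnumbered replicates.

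The fit used edgeR 4.0.16 under R 4.3.3 (TMM, filterByExpr at a minimum count of 10, quasi-likelihood test, Benjamini-Hochberg over 12335 genes), and SEs are those implied by its F statistic. The biological coefficient of variation was 4.31%. The 12 alternatives were DESeq2 1.42.0, limma-voom (limma 3.58.1), RLE size factors, library totals alone, no filter, at least 10 counts in every library, thinning to the shallowest library, a prior count of 2, and each library left out in turn. Shares of cytohesins were also taken on counts and, chosen after seeing the data, per kilobase of canonical transcript. Coordinates, exons and promoters are from a GRCh37 genome and annotation, in which 12749 gene identifiers were found. The annotation used for counting may differ from it.

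The members and lists were chosen with earlier results of these data known. Genes named are every member, VHL, at most 3 per direction of each list with the largest fold change at an FDR under 0.05, the nearest tested neighbours, and the 3 genes nearest in profile to ACKR3 and CYTIP (log2 CPM with a prior count of 2). Some genes that this rule names are not reported here. GNAI1, GNAI3, CCR10, CYTH4 and CD14 are given outside that rule and were chosen after their values were seen. Intervals on counts and the floor of 3 counts cover counting error only.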

Additional observations from a re-analysis of the deposited data

How the results depend on the processing

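Of 71 values of the 6 members under alternatives, 70 kept their direction and their side of the threshold, and none reversed. CYTH1 passed with library totals alone, at 0.28. With at least 10 counts in every library CYTIP could not be tested, which left 1 member lower and 0 past 4-fold, 1 neighbour lower, and 70 genes of the table lower past 4-fold in place of 190. Thinning to the shallowest library gave 120 such genes, 15 in place of 24 pathway genes lower, and 2 in place of 5 neighbours higher. DESeq2 called 3 neighbours higher, and with 1 library left out 2 to 4 were called, the fewest without 786-O-VHL replicate 2. The counts of members, pathway genes, neighbours and all genes that are not given here stayed within 1.5 times their value. Of 644 values for 55 other named genes, 577 kept their call, 64 lost it and 3 gained it. A reversal was counted only where the main or the alternative value had an FDR under 0.05, and 0 were found. Changes of sign between values that both missed this threshold count as kept, as for GBX2 and DNAH17 without 786-O-VHL replicate 2.

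Shares of the cytohesins depended on the length used. Their means were 16.7%, 25.2%, 56.9% and 1.20% for CYTH1, CYTH2, CYTH3 and CYTH4 in 786-O-Ctrl, then 13.6%, 28.7%, 57.3% and 0.458% in 786-O-VHL per kilobase of exon. On counts they were 18.4%, 33.5%, 47.0% and 1.05%, then 14.9%, 37.8%, 46.9% and 0.395%. Per kilobase of canonical transcript they were 23.4%, 31.4%, 43.8% and 1.42%, then 19.1%, 36.0%, 44.3% and 0.544%. On each scale CYTH1 and CYTH4 had the lower share in 786-O-VHL and CYTH2 the higher one.

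No paired analysis was possible because both 786-O-Ctrl columns carry the same replicate number. The depth of 786-O-VHL replicate 1 limits genes of low level most, and without replicate 2 that library stands alone and is assumed to vary like the other group.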
